A study of Mus musculus with 151 samples.

Results

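Primordial germ cells (PGCs) of E13.5 mouse fetuses were compared between conceptuses from natural mating (Natural) and from in vitro fertilization (IVF). RNA from pools of 100 PGCs was sequenced, with 4 Natural and 5 IVF pools, so that 9 of the 151 samples of the series entered the comparison, and all genes of their count table were considered. Natural conceptuses came from CF-1 females mated with B6/SJL males and stayed in the mother. For IVF, eggs of CF-1 females superovulated with eCG and hCG were inseminated with B6/SJL sperm. The embryos were grown to blastocysts in KSOM with amino acids under reduced oxygen and placed without surgery in pseudopregnant CF-1 recipients. Embryonic days were counted from the plug in Natural and from the day of transfer in IVF. The groups therefore differ in superovulation, fertilization, culture, transfer, the carrying female and the day count, and these cannot be told apart. The labels give the sex of every pool as female, and the text of the series also speaks of gonads for this age. Fetal gonads were dissected at this age, and for the collection of the PGCs the methods refer to an earlier study, not used here. The methods state in general that a data point is an animal or a biological sample, without saying for these pools whether they came from separate fetuses or litters, so p values measure the spread between pools, which may be partly technical.

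PGCs are the founders of eggs and sperm. After they settle in the gonad, they lose much of their DNA methylation, dampen the pluripotency genes they carried from the epiblast (Pou5f1, Nanog) and turn on germ cell genes such as Ddx4, an RNA helicase, and Dazl, an RNA-binding protein that licenses them for sexual differentiation. In the fetal ovary they then enter meiosis around E13.5, in a wave and not all at once. Retinoic acid and BMP signals and the release of polycomb and Max–Mga–E2f6 repression precede expression of Stra8, a transcription factor that acts with Meiosin, and afterwards the cohesin Rec8, the axis protein Sycp3, the synaptonemal complex protein Sycp1 and the break-forming enzyme Spo11 are made. Genes of this program are thus read here by their place in it.

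The promoters of 5 germ cell genes on which the results turn are shown, Stra8, Meioc and Rec8 of the meiotic program without the motifs searched and Sycp3 and Ddx4 with them. Each is the 250 bases before a RefSeq transcript start (GRCm38.p6, the assembly also named mm10), written 5′ to 3′ on the strand of the gene, with CACGTG, the E-box read by Max–Mga complexes, and GGCGGGAA, an E2F-type motif, in capitals. Stra8 (chr6:34920698-34920947, plus strand), Meioc (chr11:102665335-102665584, plus strand) and Rec8 (chr14:55617916-55618165, plus strand) held neither motif. Sycp3 (chr10:88459337-88459586, plus strand) held 2 CACGTG sites. Ddx4 (chr13:112652311-112652560, minus strand) held 1 CACGTG, 1 GGCGGGAA and 31 CpG dinucleotides, against 5 CpG in the Stra8, 22 in the Meioc, 10 in the Rec8 and 12 in the Sycp3 window. The Stra8 and Ddx4 windows lie inside the bounds of their genes, and the Meioc and Rec8 windows overlap them. For these genes the sequence before the outermost start is not shown, so a missing motif holds for the window only.
Stra8: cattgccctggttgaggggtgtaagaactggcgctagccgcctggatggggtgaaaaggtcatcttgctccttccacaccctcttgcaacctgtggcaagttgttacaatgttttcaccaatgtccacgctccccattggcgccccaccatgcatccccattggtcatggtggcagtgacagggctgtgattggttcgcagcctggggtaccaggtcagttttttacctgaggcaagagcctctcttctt
Meioc: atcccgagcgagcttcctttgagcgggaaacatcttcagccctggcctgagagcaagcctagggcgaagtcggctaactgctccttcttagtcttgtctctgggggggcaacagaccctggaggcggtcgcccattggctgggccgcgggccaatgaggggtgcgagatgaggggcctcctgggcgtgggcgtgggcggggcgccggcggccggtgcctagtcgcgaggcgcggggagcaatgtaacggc
Rec8: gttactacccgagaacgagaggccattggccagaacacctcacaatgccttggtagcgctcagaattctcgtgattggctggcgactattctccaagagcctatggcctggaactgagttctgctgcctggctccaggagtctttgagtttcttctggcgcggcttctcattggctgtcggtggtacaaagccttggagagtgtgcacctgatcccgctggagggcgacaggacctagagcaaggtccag
Sycp3: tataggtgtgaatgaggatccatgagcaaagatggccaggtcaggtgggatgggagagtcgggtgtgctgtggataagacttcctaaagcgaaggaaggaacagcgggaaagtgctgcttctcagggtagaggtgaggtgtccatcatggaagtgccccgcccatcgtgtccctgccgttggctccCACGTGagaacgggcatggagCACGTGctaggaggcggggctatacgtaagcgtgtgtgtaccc
Ddx4: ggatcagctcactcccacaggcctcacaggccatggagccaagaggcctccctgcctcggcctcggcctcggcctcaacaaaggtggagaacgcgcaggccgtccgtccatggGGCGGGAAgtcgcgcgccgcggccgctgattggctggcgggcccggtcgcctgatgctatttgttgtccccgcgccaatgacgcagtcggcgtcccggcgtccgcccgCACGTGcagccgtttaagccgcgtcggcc

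Promoter sequences were matched for 60 genes of the meiotic lists (70 windows), 20 of the gonadal germ cell list (22 windows) and 21 of the pluripotency list (26 windows). CACGTG, counted on both strands, was present in 45.5% of the gonadal germ cell windows, 17.1% of the meiotic windows and 3.85% of the pluripotency windows, against 6.02% of all 32851 windows. GGCGGGAA was present in 4.55%, 10% and 0% of these sets and in 1.86% of all windows, and CNCCTCAG, the motif linked to Stra8 and Meiosin, in 13.6%, 11.4% and 3.85% against 6.42%. The median number of CpG per window was 15.5 in the gonadal germ cell, 13.5 in the meiotic and 7 in the pluripotency set, and 6 over all windows. CACGTG is its own reverse complement, matches of different motifs were counted separately even where they overlapped, and a match describes the sequence only.

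Total counts ranged from 4364495 to 8036691 in Natural and from 5520655 to 8675189 in IVF, on 35976 gene names, of which 15296 to 19586 had at least 1 count. Levels are given as CPM, counts relative to library size after TMM scaling, and they are not per length, so they are compared between pools and not between genes. At these depths 3 counts corresponded to 0.295 to 0.738 CPM, the most that a count of 0 allows, and this limit covers counting error only. A pair of pools stood apart. Natural pool 2 had the most genes detected and the lowest correlations with the other pools (r of 0.786 to 0.915 over genes), and IVF pool 2 had 16.0% of its counts on mitochondrially encoded genes, against 4.61% to 6.95% in the other 8 pools. Results are therefore also given without Natural pool 2. Genes detected were 16047, 19586, 16376 and 15296 in Natural pools 1 to 4 and 16980, 17747, 18395, 16763 and 17888 in IVF pools 1 to 5. Without Natural pool 2 the Natural pools were thus below every IVF pool in genes detected. Their total counts, 4364495 to 6031299, were also mostly below those of the IVF pools, and genes detected depend on depth.

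All 9 pools expressed the PGC markers. Pou5f1, the pluripotency factor of the early germ line, stood at 238, 72.0, 238 and 200.5 CPM in Natural pools 1 to 4 and at 229, 92.2, 132, 245 and 124 CPM in IVF pools 1 to 5. Dazl was at 4449, 1909, 1460.0 and 1127 CPM in Natural and at 3434, 2225, 2795, 3136 and 2727 CPM in IVF. Ddx4 was at 1279.5, 292, 417 and 172 CPM in Natural and at 874, 383, 392, 579.9 and 519 CPM in IVF. Every pool thus carried the markers of its label. In 10 E18.5 ovaries of the series, a tissue in which germ cells are a minority, the same genes had medians of 4.32 CPM (Pou5f1), 76.2 CPM (Dazl) and 42.2 CPM (Ddx4) relative to library totals. These were Natural ovaries 1 to 4 and IVF ovaries 1 to 6, so the ovary medians mix both groups. The ovary table was made separately from another type of library and was used only for orientation. Of 135 germ cell genes in 8 lists (pluripotency, gonadal germ cell, piRNA and 5 lists of meiosis), 105 were at 1 CPM or more in every pool.

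Genes of the gonadal soma were low. Of 92 genes in 7 lists of supporting, surface, interstitial, steroidogenic, endothelial and immune cells, 14 reached 1 CPM in every pool and 9 had no count in any pool. Foxl2, the transcription factor of ovarian supporting cells, Amh, the Sertoli cell hormone, and Upk3b, of the surface epithelium, were at 0 in all 9 pools, as was Pax2 of the mesonephros. Col1a1, a collagen of interstitial cells at a median of 10460.5 CPM in the E18.5 ovaries, stood at 0, 1.97, 0 and 0 CPM in Natural and at 2.37, 0.336, 5.76, 4.46 and 2.27 CPM in IVF. Wt1, of supporting and surface cells, stood at 0, 5.22, 0 and 0 CPM in Natural and at 3.26, 0, 2.26, 1.03 and 0.826 CPM in IVF. The summed level of the 92 genes was 531 to 596 CPM in Natural and 529.8 to 629 CPM in IVF, against a median of 36733 CPM in the ovaries, and Sparc (64.1 to 144 CPM), Cbx2 (64.9 to 98.2 CPM) and Foxo1 (51.1 to 126 CPM), which are not restricted to soma, made up much of it. Of the 29 soma genes tested, 0 differed at an unadjusted p under 0.05 (2.73% of all genes did, edgeR). A fit with a soma covariate called 0 genes, with 394 at an unadjusted p under 0.05. The covariate was the mean log2 CPM of the ovarian supporting, surface, interstitial and endothelial lists only, scaled by library totals without TMM. Without Natural pool 2, 4 of 29 were higher in IVF (Col1a1, Col3a1, Rspo1 and Inhbb) and 1 lower (Sparc) at an unadjusted p under 0.05, against 9.63% higher and 6.22% lower of all genes. Col1a1, Col3a1 and Rspo1 were at 0 in the other 3 Natural pools and at no more than 5.76 CPM in any IVF pool. The mean log2 CPM that served as the soma covariate was −0.02, 1.04, 0.27 and 0.05 in Natural pools 1 to 4 and 0.48, 0.40, 1.07, 0.38 and 0.44 in IVF pools 1 to 5.

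Single markers picked out single pools. Csf1r, the macrophage receptor, was at 8.21 CPM in Natural pool 3, 1.10 CPM in Natural pool 4 and 2.37 CPM in IVF pool 1, and at 0 in the other 6 pools. C1qa, a complement gene of macrophages, was found in the same 3 pools. The summed immune list was 31.2 CPM in Natural pool 3, 10.8 CPM in Natural pool 4 and 14.4 CPM in IVF pool 1, against 1.45 to 5.61 CPM in the others. The summed erythroid list was 45.9 CPM in IVF pool 2, the pool with the high mitochondrial share, and 1.72 to 5.29 CPM in the other 8.

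**Figure D1:**
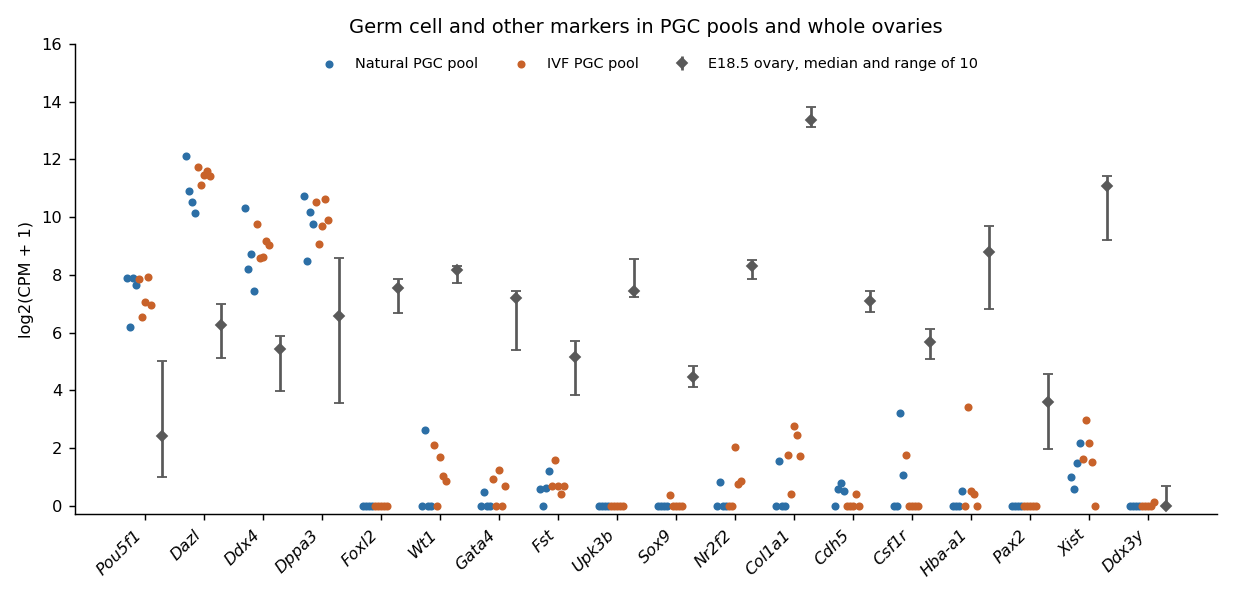
Levels of PGC, soma and sex marker genes in the 4 Natural and 5 IVF pools, as log2(CPM + 1), one point per pool (blue for Natural, orange for IVF), with the median and range of 10 E18.5 ovaries as grey diamonds and lines. The ovaries are of both groups, Natural and IVF. Pou5f1, Dazl and Ddx4 lie above the ovary values in all 9 pools, and in the pools Foxl2 and Upk3b lie at 0.

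Y-linked genes were not detected beyond a single read, and Xist was low in all pools. Of 9 Y-linked genes, 8 had no count in any pool, and the only count was 1 read of Ddx3y in IVF pool 5. Nanos2, the regulator of male fetal germ cells, had 4 counts in IVF pool 1 and 2 in IVF pool 4, and Dnmt3l, a later gene of male germ cells, had none. Xist, the RNA that coats the inactive X chromosome in soma and is lost when PGCs reactivate it, was at 0.492 to 3.53 CPM in Natural and 0 to 6.90 CPM in IVF, against a median of 2140.1 CPM in the ovaries. Tex101, a gene of germ cells of both sexes that was placed on the male list, followed the meiotic genes instead, with 36.9, 422, 21.8 and 10.4 CPM in Natural and 51.7 to 124 CPM in IVF.

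Genes of meiosis differed widely between pools, and at both ends stood Natural pools. In pools of cells, fewer cells that express a gene and less RNA of it per cell cannot be told apart. Stra8 (chr6:34920163-34939344) stood at 30.5, 627, 0 and 2.20 CPM in Natural pools 1 to 4 and at 98.5, 189, 100.0, 56.5 and 153 CPM in IVF pools 1 to 5. Natural pool 2 was thus above every IVF pool, and Natural pools 1, 3 and 4 were below every IVF pool. Means ± SD were 165 ± 308 CPM over the 4 Natural pools and 119 ± 51.9 CPM over the 5 IVF pools. The log2 fold change (IVF over Natural) was −0.47, with a 95% interval from −3.20 to 2.26 (edgeR quasi-likelihood test, adjusted p = 1).

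Meioc, which stabilizes the meiotic program together with the RNA helicase Ythdc2, also had Natural pool 2 at the top and the other 3 Natural pools below every IVF pool. It was at 39.9, 215, 5.36 and 4.41 CPM in Natural and at 65.3, 107, 85.7, 45.2 and 143 CPM in IVF. Gm4969, the symbol under which the table holds Meiosin, the partner of Stra8, was at 13.8, 127, 5.53 and 3.30 CPM in Natural and 11.5 to 27.2 CPM in IVF. Zglp1, a factor that acts downstream of BMP to start oogenesis, varied less, with 36.9, 32.9, 20.0 and 32.2 CPM in Natural and 46.2, 43.2, 49.3, 29.9 and 47.5 CPM in IVF. Its log2 fold change was 0.51 (unadjusted p = 0.0499, adjusted p = 1, edgeR), and IVF pool 4 overlapped with Natural.

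Proteins of the meiotic chromosome followed. Rec8, the meiosis-specific cohesin, was at 86.9, 328, 11.1 and 19.2 CPM in Natural and at 102, 197, 106, 70.9 and 163 CPM in IVF. Smc1b, its partner, was at 422, 785, 147 and 122 CPM in Natural and at 410.3, 557, 452, 286 and 436 CPM in IVF. Sycp3, of the chromosome axis, was at 24.9, 105, 8.03 and 8.15 CPM in Natural and at 32.6, 27.2, 31.3, 14.1 and 30.6 CPM in IVF. In each of these, Natural pool 2 was the highest of the 9 pools and Natural pools 3 and 4 were the lowest. Sycp1, the transverse filament of the synaptonemal complex, was at 26.6, 233, 14.1 and 6.39 CPM in Natural and at 40.0, 138, 65.2, 22.1 and 51.0 CPM in IVF, where IVF pool 4 lay below Natural pool 1.

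Several genes of recombination and telomere attachment, which act later, were highest in Natural pool 2. Spo11, which cuts DNA to start recombination, was at 19.7, 91.8, 16.8 and 11.7 CPM in Natural and 19.7 to 51.5 CPM in IVF. Prdm9, which marks the sites of the cuts, was at 1.72, 58.7, 0.714 and 0.441 CPM in Natural and 2.92 to 8.07 CPM in IVF. Rad21l, a meiotic cohesin, was at 43.3 CPM in Natural pool 2, at 0 in the other 3 Natural pools and at 0.296 to 2.27 CPM in IVF. For Prdm9 the IVF pools were above the other 3 Natural pools and under pool 2, and for Rad21l the lowest IVF pool was within the limit that a count of 0 allows. Taf7l, a germ cell subunit of the general transcription machinery, was at 7.88, 144, 0.536 and 0 CPM in Natural and 5.63 to 20.3 CPM in IVF, and Majin, which ties telomeres to the nuclear envelope, was at 38.8 CPM in Natural pool 2 and at 0.441 to 4.85 CPM elsewhere. No IVF pool reached the level of Natural pool 2 for Prdm9, Rad21l, Taf7l or Majin.

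**Figure D2:**
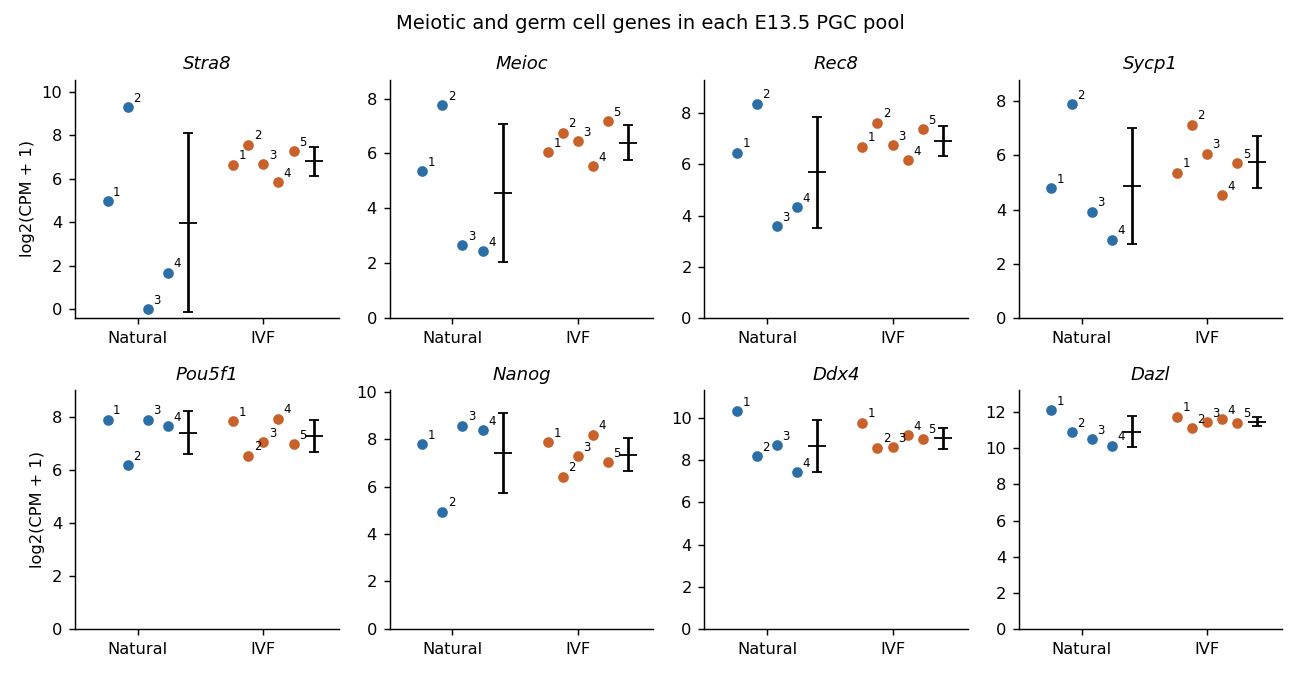
Levels of Stra8, Meioc, Rec8, Sycp1, Pou5f1, Nanog, Ddx4 and Dazl in each pool, as log2(CPM + 1), with pool numbers beside the points and bars at the mean ± SD of each group. For Stra8, Natural pools run from 0 to 627 CPM and IVF pools from 56.5 to 189 CPM, and for Nanog the order is turned, with Natural pool 2 lowest at 29.8 CPM.

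Over the 5 meiotic lists (71 genes, 65 tested), the mean log2 CPM was 4.49, 6.01, 3.70 and 3.68 in Natural pools 1 to 4 and 4.69, 5.14, 4.91, 4.46 and 4.90 in IVF pools 1 to 5. Natural pool 2 was the highest of the 9 pools in 40 of the 65 genes, against 26.1% of all genes tested, and Natural pool 3 or 4 was the lowest in 45, against 30.5% of all genes. The IVF pools lay wholly inside the range of the Natural pools in 41 of the 65 genes, against 37.1% of all genes. The median SD of log2 CPM between Natural pools was 0.97 and between IVF pools 0.50, and it was 0.62 in Natural with pool 2 left out. Over all 12763 genes tested these SDs were 0.58, 0.41 and 0.38. They rest on different numbers of pools, and the median SD of fewer pools tends to be lower, so 0.41 and 0.38 are not ranked. These counts and SDs are descriptions with no test.

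Pluripotency genes ran the other way. Nanog was at 219.5, 29.8, 379.7 and 330.3 CPM in Natural and at 231, 83.9, 155, 290.0 and 129 CPM in IVF. Tfap2c, a factor that specifies PGCs, was at 193, 38.5, 191 and 208 CPM in Natural and at 138, 69.0, 86.9, 168 and 82.2 CPM in IVF. Dppa5a, an RNA-binding protein of pluripotent cells, was at 2440.4, 365, 3982 and 2542 CPM in Natural and at 1864, 734, 969, 3367 and 935 CPM in IVF. In all 3 genes Natural pool 2 was the lowest pool and IVF pool 2, the highest IVF pool for Stra8, was the next lowest. Natural pool 2 was lowest in 22 of the 28 tested genes of the list, against 23.0% of all genes, and in 22 of 36 tested cell cycle genes. It was also lowest in 11 of 17 heat shock and 12 of 19 glycolysis genes. Eef1a1, Rpl4, Atp5b and Hspa8, among the most abundant genes, were likewise lowest in Natural pool 2 and next lowest in IVF pool 2. A low level in these pools was thus not particular to pluripotency genes. Ccnb1, the cyclin of mitosis, was at 2147, 248, 1361 and 1335 CPM in Natural and at 1541, 539, 824, 1682 and 860.0 CPM in IVF.

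The comparison of all genes called none. With edgeR's quasi-likelihood test, 0 of 12763 genes tested (0%) had an adjusted p under 0.05, and 349 (2.73%) had an unadjusted p under 0.05, 184 higher in IVF (1.44%) and 165 lower (1.29%). DESeq2 called 0 of 25002 genes, with 665 at an unadjusted p under 0.05, and limma-voom with sample quality weights called 0, with 2376. The ranges of the groups did not overlap for 151 genes (1.18%), 97 higher in IVF (0.76%) and 54 lower (0.423%). Of the total variation of log2 CPM over these genes, as sums of squares, 11.9% lay between the groups (exact permutation test over 126 assignments, one-sided, p = 0.421, the smallest p it allows being 0.00794).

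The first principal component held 48.2% of the variance and the second 14.3%. On the first, Natural pools 1 to 4 scored −27.2, 98.5, −71.4 and −68.4, and IVF pools 1 to 5 scored −11.0, 61.7, 22.3, −33.9 and 29.5. The extremes of this component were Natural pools, and all 5 IVF pools lay between them.

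**Figure D3:**
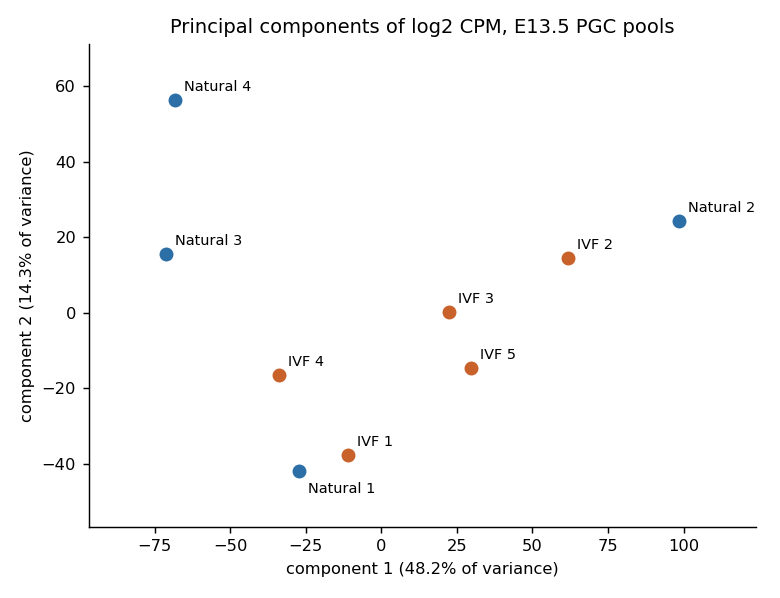
First and second principal components of log2 CPM over the tested genes, one point per pool. The first axis (48.2% of variance) runs from Natural pools 3 and 4 at about the left end to Natural pool 2 at the right end, with the IVF pools between.

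Without Natural pool 2 the counts moved while the main test still called none. edgeR then called 0 of 12820 genes (0%), with 1234 higher in IVF (9.63%) and 797 lower (6.22%) at an unadjusted p under 0.05, and the groups did not overlap for 662 genes higher (5.16%) and 333 lower (2.6%). The other tools, run the same way after the data were seen, called genes: DESeq2 called 252 higher and 39 lower, and limma-voom called 278 higher and 336 lower. The share of variation between the groups was 28.9% (exact permutation test over 56 assignments, one-sided, p = 0.0536, the smallest p it allows being 0.0179).

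In that fit, of 64 tested meiotic genes, 27 (42.2%) were higher in IVF and 0 lower at an unadjusted p under 0.05. Over all genes these shares were 9.63% and 6.22%. The groups did not overlap for 9 of the 64 (14.1%), all higher, against 5.16% higher and 2.6% lower of all genes. The median log2 fold change of the 64 genes was 0.69, against 0.02 over all genes. Over the 7 soma lists the median log2 fold change was 0.18. Of their 29 tested genes 4 (13.8%), Col1a1, Col3a1, Rspo1 and Inhbb, were higher in IVF at an unadjusted p under 0.05, against 9.63% of all genes. The mean that served as the soma covariate, from part of these lists and without TMM, was 0.38 to 1.07 in IVF and −0.02 to 0.27 in Natural in these 8 pools. In these 8 pools the Natural pools also had fewer genes detected (15296 to 16376) than the IVF pools (16763 to 18395). Total counts were 4364495 to 6031299 in these Natural pools and 5520655 to 8675189 in IVF. The part of soma RNA, of depth or of genes detected in the difference without Natural pool 2 was not tested. The log2 fold change of Stra8 was 3.53 (95% interval 1.71 to 5.36, unadjusted p = 0.000952, adjusted p = 0.167, edgeR). That of Meioc was 2.48 (1.19 to 3.78), that of Rec8 1.74 (0.61 to 2.88) and that of Sycp1 2.03 (0.88 to 3.18). Natural pool 2 was the highest pool for each of these genes (627 CPM of Stra8), so leaving it out raises these values. The intervals and p values of this fit hold only under that choice of pools. Of 29 tested pluripotency genes, 0 were higher and 7 lower (24.1%) at an unadjusted p under 0.05, with a median of −0.40. Nanog was at −0.81 (−1.51 to −0.11, unadjusted p = 0.0269, edgeR). Of 19 tested gonadal germ cell genes, 5 were higher (26.3%) and 1 lower (5.26%). Both lists stand beside the 9.63% and 6.22% of all genes. With all 9 pools 2 of 65 meiotic genes were higher and 1 lower at an unadjusted p under 0.05. The lower was Gm960, the symbol here of the Spo11 partner Top6bl, at −1.66. The pluripotency list held 0 and 0 of 28 and the gonadal germ cell list 1 and 0 of 19. Over all genes 1.44% were higher and 1.29% lower. Medians were −0.03 (meiotic), −0.14 (pluripotency) and 0.14 (gonadal germ cell) against −0.04 over all genes. With Natural pool 2 kept, the log2 fold change of Stra8 was also above 0 in limma-voom (6.19), with a soma covariate (0.89) and with a meiotic covariate (1.499). It was 2.45 with a replicate block over 8 pools, which leaves out IVF pool 5. The direction of Stra8 thus differed without Natural pool 2 and between fits that kept it. limma-voom used sample quality weights, which can lower the weight of an outlying pool, and the meiotic covariate includes Stra8. Why the direction differed between these fits was not tested.

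**Figure D4:**
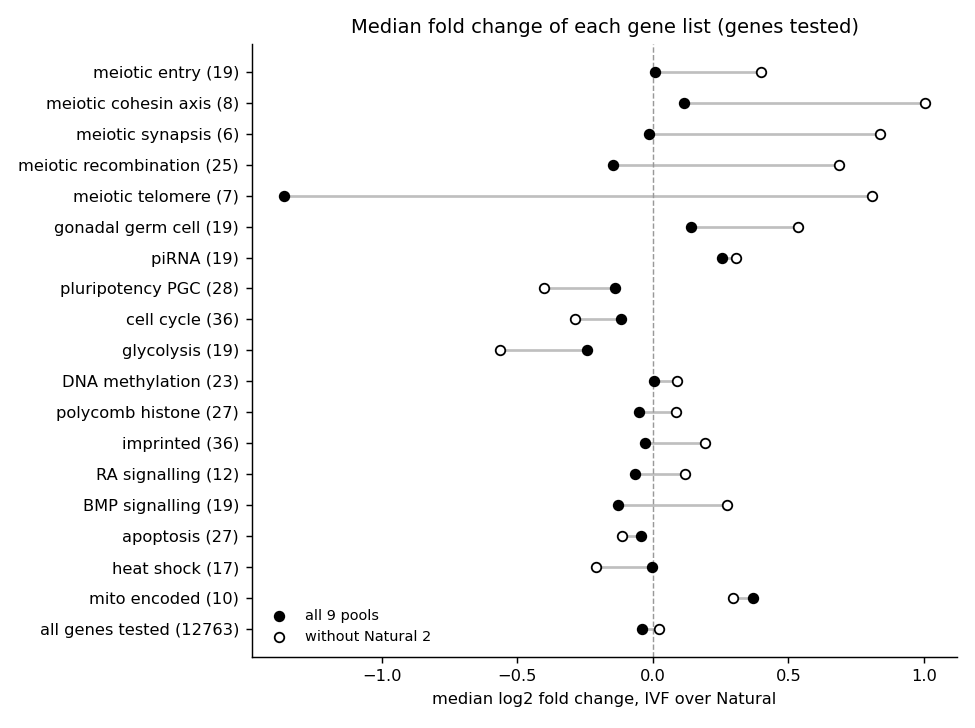
Median log2 fold change (IVF over Natural) of the tested genes of each list with all 9 pools and without Natural pool 2. Filled circles use all 9 pools and open circles leave that pool out. The cohesin and axis list moves from 0.11 to 1.00 and the pluripotency list from −0.14 to −0.40, while the median of all genes moves from −0.04 to 0.02.

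Regulators upstream of meiosis were mostly above the unadjusted threshold with all pools, and those under it were E2f6, Rdh10, Smad7, Eed and Zglp1. E2f6, a repressor of germ cell genes in soma and early PGCs, was at 15.0, 19.2, 15.9 and 16.1 CPM in Natural and at 20.9, 37.3, 26.0, 21.1 and 21.2 CPM in IVF, without overlap (log2 fold change 0.61, unadjusted p = 0.033, adjusted p = 1, edgeR). Rdh10, which makes the precursor of retinoic acid, was at 5.91, 10.9, 4.46 and 3.30 CPM in Natural and at 9.92, 14.8, 10.4, 9.10 and 13.1 CPM in IVF (0.88, unadjusted p = 0.0484). In Rdh10 only Natural pool 2 reached the IVF range. Smad7, which inhibits BMP and TGF-beta receptors, was at 7.38, 21.7, 12.5 and 11.9 CPM in Natural and at 5.63, 11.8, 6.38, 7.73 and 6.30 CPM in IVF (−0.83, unadjusted p = 0.0497). Eed, a core subunit of polycomb repressive complex, was at 77.5, 57.3, 179 and 117 CPM in Natural and at 68.1, 54.7, 70.3, 85.0 and 50.0 CPM in IVF (−0.71, unadjusted p = 0.035), where Natural pools 3 and 4 were above all others. Of 19 tested BMP genes 0 were higher and 1 lower, of 12 retinoic acid genes 1 and 0, and of 27 polycomb and histone methylation genes 0 and 1, beside the 1.44% and 1.29% of all genes. In the fit without Natural pool 2, these counts were 2 and 0 (BMP), 4 and 1 (retinoic acid, Stra8 included) and 1 and 3 (polycomb and histone methylation), beside 9.63% and 6.22% of all genes.

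In the gonadal germ cell and piRNA lists, Brdt and Tdrd12 had the smallest p. Brdt (chr5:107331116-107387061), a bromodomain protein of male meiosis, was at 22.1, 41.9, 16.8 and 28.4 CPM in Natural and at 116, 74.9, 47.6, 32.8 and 71.3 CPM in IVF. IVF pool 4 lay below Natural pool 2, and the log2 fold change was 1.32 (95% interval 0.52 to 2.11, unadjusted p = 0.00364, adjusted p = 1, edgeR) and 1.61 without Natural pool 2. Tdrd12, needed for secondary piRNAs, was at 61.0, 74.8, 99.4 and 87.2 CPM in Natural and at 58.1, 44.2, 56.7, 66.1 and 60.1 CPM in IVF (−0.50, unadjusted p = 0.0226). The oocyte factors Sohlh1, Figla, Lhx8 and Nobox, which act later in follicle formation, stood at 12.5 CPM or below in every pool.

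Ldha had the smallest p of the 19 glycolysis genes. It encodes the lactate dehydrogenase subunit that turns pyruvate into lactate (chr7:46842274-46855627). Its levels were 153, 212, 152 and 128 CPM in Natural and 832, 167, 252, 520.4 and 440.4 CPM in IVF, so that 4 of 5 IVF pools were above all Natural pools and IVF pool 2 was not. Means ± SD were 161 ± 35.7 CPM over the 4 Natural pools and 442 ± 259.7 CPM over the 5 IVF pools. The log2 fold change was 1.46 (95% interval 0.56 to 2.35, unadjusted p = 0.00409, adjusted p = 1, edgeR) and 1.62 without Natural pool 2. Hk2, a hexokinase, was lower in IVF at an unadjusted p of 0.0434, no other gene of the list was under 0.05, and the median log2 fold change of the 19 was −0.24. Without Natural pool 2, 1 of 19 was higher (5.26%) and 5 were lower (26.3%), against 9.63% and 6.22% of all genes, with a median of −0.57. Pkm, the pyruvate kinase, was at 3669, 575, 2917 and 2244 CPM in Natural and at 2601, 809, 1077, 3479 and 1258 CPM in IVF, with the 2 pools that had most Stra8 again the lowest.

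Of 23 tested genes that write, erase and guard DNA methylation, 0 were higher and 1, Mbd4, lower at an unadjusted p under 0.05 with all pools (1.44% and 1.29% of all genes). Without Natural pool 2, 5 were higher (Uhrf1, Ehmt1, Tet2, Tet3 and Zfp57) and 2 lower (Mbd4 and Apex1), against 9.63% and 6.22% of all genes. Mbd4, a glycosylase that removes T from G-T mismatches, was at 49.7, 71.8, 58.9 and 63.5 CPM in Natural and at 37.6, 43.7, 45.1, 45.8 and 40.5 CPM in IVF, without overlap (−0.52, unadjusted p = 0.00988, adjusted p = 1, edgeR). Dnmt1, which maintains methylation, was at 599, 276, 443 and 418 CPM in Natural and at 533, 374, 430.3, 547 and 412 CPM in IVF. Tet1, which oxidizes methylcytosine and is needed for activation of meiotic genes, was at 248, 110.0, 282 and 298 CPM in Natural and at 228, 241, 238, 245 and 243 CPM in IVF, an even level in IVF. Natural pool 2 was the lowest pool for Dnmt1 and Tet1. Uhrf1, the partner of Dnmt1, and Tet3 followed the meiotic genes, with Uhrf1 at 58.3, 135, 17.0 and 17.6 CPM in Natural and 39.5 to 66.8 CPM in IVF, and Tet3 at 0, 13.6, 0 and 0 CPM in Natural and 1.03 to 7.57 CPM in IVF.

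Of 49 imprinted genes, which are expressed from 1 parental copy in soma and have lost this mark in PGCs, 36 were tested, and 1 was higher and 0 lower in IVF at an unadjusted p under 0.05 (1.44% and 1.29% of all genes). When Natural pool 2 was left out, 8 were higher and 2, Peg12 and Sfmbt2, lower (9.63% and 6.22% of all genes), and Ndn was again among the higher. The gene higher with all pools was Ndn, at 26.1, 26.8, 37.1 and 27.8 CPM in Natural and 50.7, 33.3, 41.6, 49.8 and 52.2 CPM in IVF, where IVF pool 2 overlapped with Natural pool 3 (0.63, unadjusted p = 0.0107, adjusted p = 1, edgeR). H19 was at 15.8, 62.1, 24.3 and 13.2 CPM in Natural and 17.0 to 36.6 CPM in IVF, and Peg3 at 595, 184, 873 and 526 CPM in Natural and 301 to 678 CPM in IVF. Phlda2 was at 1122, 201, 430.3 and 182 CPM in Natural and at 192 to 534 CPM in IVF, against 0.526 CPM in the ovaries, in which H19 had a median of 8391 CPM.

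Lists of other processes had no gene at an unadjusted p under 0.05 with all pools: of cell cycle genes 0 of 36 tested, of Bcl2 family and cell death genes 0 of 27, of heat shock genes 0 of 17, of immediate early genes 0 of 14, and of mitochondrially encoded genes 0 of 10. As 2.73% of all genes were under that p, lists of this size would hold few such genes in any case. Once Natural pool 2 was left out, the cell cycle list held 0 higher and 1 lower, the cell death list 2 and 1, the immediate early list 0 and 1, and the heat shock and mitochondrial lists 0 and 0. COX1, a subunit of cytochrome oxidase, was at 38905, 17979.7, 30088 and 19438 CPM in Natural and at 26162, 58546, 23998, 28154 and 16423 CPM in IVF, with IVF pool 2 the highest. The 10 genes with the highest mean CPM were COX1, CYTB and ND1 of the mitochondrial genome, the elongation factor Eef1a1, the chaperones Hsp90aa1, Hsp90ab1 and Hspa8, the ribosomal protein gene Rpl4, Atp5b of ATP synthase and LOC101056014.

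Of the 151 genes whose groups did not overlap, the 8 with the smallest p in each direction are described. The 8 higher in IVF were Mpped1, Tceanc, Zfp647, Sod3, Zfp773, Plod1, Tspan18 and Coch. Mpped1 (chr15:83779472-83858487), a metallophosphoesterase, was at 9.84, 13.5, 4.64 and 5.95 CPM in Natural and at 46.7, 32.5, 30.7, 16.7 and 23.0 CPM in IVF. Means ± SD were 8.48 ± 4.00 CPM over the 4 Natural pools and 29.9 ± 11.3 CPM over the 5 IVF pools. Its log2 fold change was 1.80 (95% interval 0.95 to 2.65, unadjusted p = 0.000572, adjusted p = 1, edgeR). Tceanc, a gene with a transcription elongation factor domain, was at 64.5, 41.6, 51.6 and 48.9 CPM in Natural and at 92.9, 107, 84.0, 72.1 and 108 CPM in IVF (0.85, 95% interval 0.42 to 1.27). In neither gene did Natural pool 2 stand apart from the other Natural pools as it did for Stra8.

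Sod3 (chr5:52363804-52369738), the extracellular superoxide dismutase, was at 0.984, 1.18, 0 and 0.441 CPM in Natural and at 8.59, 2.35, 5.97, 3.78 and 10.7 CPM in IVF (3.20, 95% interval 1.43 to 4.97), and its Natural levels were near the level of 3 counts. Coch, an extracellular matrix protein of the inner ear, was at 4.68, 11.6, 4.28 and 0.881 CPM in Natural and at 14.4, 21.9, 17.5, 25.1 and 30.8 CPM in IVF (1.99, 0.81 to 3.16). Plod1, which hydroxylates collagen lysines, was at 52.9, 48.5, 33.9 and 36.4 CPM in Natural and 58.4 to 100.3 CPM in IVF (0.82, 0.34 to 1.31). The zinc finger genes Zfp647 (2.21) and Zfp773 (1.59) and the tetraspanin Tspan18 (2.13) were low in Natural, at 0.441 to 6.40 CPM, and at 3.09 to 16.2 CPM in IVF.

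The 8 lower in IVF were Hmcn2, Brpf1, Scnm1, Pnp, Arl15, Mbd4, Wdr19 and Ccdc189. Brpf1, a scaffold of histone acetyltransferase complexes, was at 71.4, 113, 59.8 and 73.4 CPM in Natural and at 43.3, 51.0, 56.7, 54.9 and 44.0 CPM in IVF (−0.67, 95% interval −1.12 to −0.22). Scnm1, of the minor spliceosome, was at 19.9, 10.1, 17.9 and 16.7 CPM in Natural and at 8.74, 7.57, 6.69, 9.79 and 8.88 CPM in IVF (−0.95, −1.61 to −0.30). Pnp, a purine phosphorylase, was at 21.7, 25.8, 34.3 and 31.7 CPM in Natural and at 16.4, 13.3, 14.0, 18.54 and 21.1 CPM in IVF (−0.77, −1.29 to −0.24). Hmcn2 (−1.75), Arl15 (−0.90), Wdr19 of the cilium (−1.002) and Ccdc189 (−1.09) stood at 4.18 to 37.7 CPM in Natural and 1.51 to 17.2 CPM in IVF. All 16 genes were chosen for not overlapping, so that property is no result, and the adjusted p of each was 1 in edgeR with all pools. In DESeq2 with all pools the adjusted p was 0.104 for Mpped1 and Sod3 and larger for the others. In DESeq2 without Natural pool 2, a fit added after the data were seen, Coch had the smallest p. The smallest adjusted p of that fit was 1.2e-05.

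**Figure D5:**
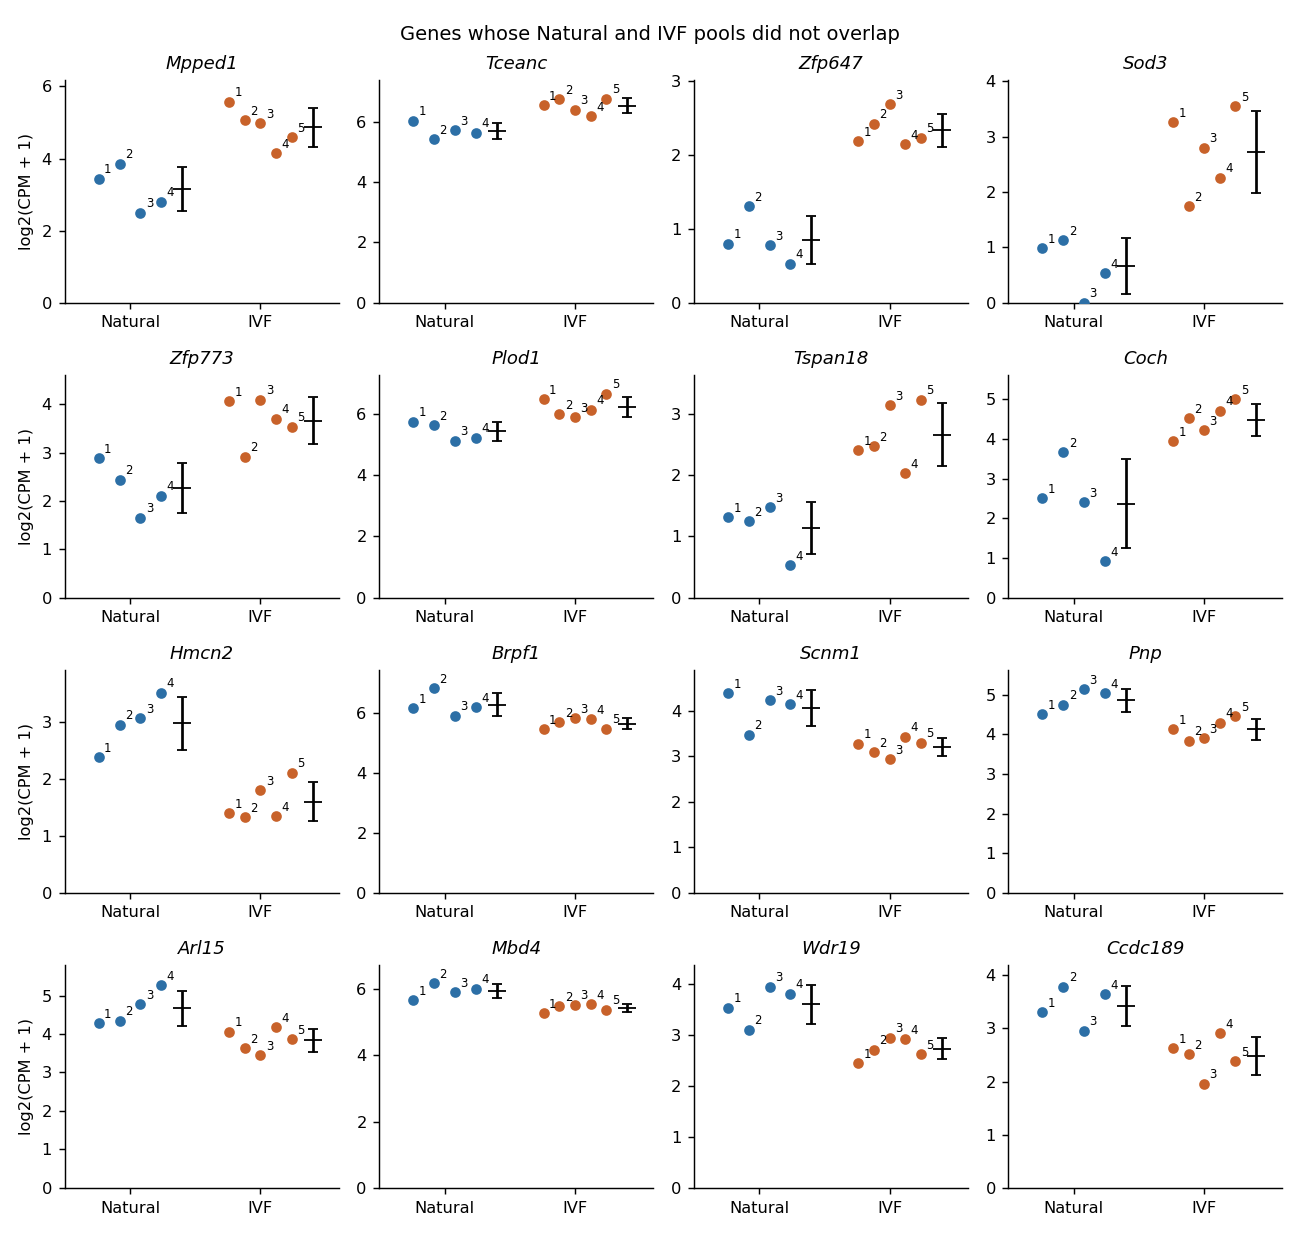
Levels of genes whose Natural and IVF pools did not overlap, as log2(CPM + 1), with pool numbers and bars at the mean ± SD of each group. For Mpped1 the 5 IVF pools sit between 16.7 and 46.7 CPM, above the Natural pools at 4.64 to 13.5 CPM.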

How the data were processed

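Pools of 100 E13.5 PGCs were lysed and their polyadenylated RNA was reverse-transcribed and amplified by a modified SMART-Seq protocol, and Nextera XT libraries were sequenced, as the methods describe. This library type does not keep strand, so reads of a gene and of an antisense or overlapping partner could not be told apart. The authors deposited raw counts per gene, made from trimmed reads with STAR (genome mm10) and featureCounts. The processing notes of the submitters name STAR (version 2.3.0e), featureCounts (version 1.5.0), Trimmomatic (version 0.32) and DESeq2, while the paper names trimgalore.

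Counts were tested with edgeR (version 4.0.16, R version 4.3.3): default expression filter, TMM scaling, quasi-likelihood test, two-sided, Benjamini-Hochberg adjustment over all 12763 genes kept, threshold 0.05. Levels are CPM on effective library sizes, and log2 CPM used a prior count of 2. DESeq2 (version 1.42.0) and limma (version 3.58.1) served as alternatives, with other scalings, filters, covariates, a replicate block and each pool left out. The test was checked on simulated counts. No 2 libraries held identical values. Figures were drawn with matplotlib (version 3.10.9). The share of variation between groups was tested by exact permutation of pools, one-sided.

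The members and the 31 gene lists were chosen with earlier results of these data known, so list counts carry no test. Genes are named by a rule: the exemplars of each list, the gene of each list with the smallest p, the 8 higher and 8 lower genes with the smallest p among those that did not overlap (unnamed models and pseudogenes left out), the 10 with the highest mean CPM, and every called gene. Genes of the lists outside this rule were named after their values were seen. Promoters came from RefSeq (GRCm38.p6). The 10 E18.5 ovaries (4 Natural and 6 IVF), of 6995713 to 14830788 counts, were scaled by library totals. Gene coordinates are from the same assembly.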

Additional observations from a re-analysis of the deposited data

Results flagged for a closer look

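In a search of 344 sets of values (named genes, list sums and the mitochondrial share, each within a group of 4 or 5 pools), 23 had a pool far from the others of its group, by the gap to its nearest neighbour relative to the range. For roughly normal values chance gives about 1 in 20 such sets, and the genes are not independent. Sets with counts in only 1 pool of the group, such as Col1a1 and Wt1 in Natural, are always flagged, so that rate does not hold for them.

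Natural pool 2 accounted for 7 of them. It had the lowest Pou5f1 (72.0 CPM) and the lowest sum of the pluripotency list (2916 CPM), and the highest Rad21l (43.3 CPM). It was also the only Natural pool with more than 0 CPM of Wt1 (5.22), Col1a1 (1.97), Col3a1 (4.53) and Kdr (1.38), which are genes of supporting, interstitial and endothelial cells. The lists as a whole did not stand out in this way. Its endothelial sum, 46.5 CPM, was the lowest of all pools. Its sum over the 7 soma lists, 576 CPM, lay within the 531 to 596 CPM of the other Natural pools. The part of these soma reads in the meiotic levels of the pool was not tested.

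IVF pool 2 accounted for 6. Its mitochondrial share was 16.0%, its erythroid sum was 45.9 CPM and its Hba-a1 was 9.76 CPM, and it was high among IVF pools for Fst (2.02 CPM), Wnt4 (1.68 CPM) and Peg10 (1.68 CPM).

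The remaining 10 were single genes. IVF pool 4 was low for Sycp3 (14.1 CPM), Zglp1 (29.9 CPM), Krt18 (21.6 CPM) and Egr1 (1.03 CPM) and high for Zfp42 (86.5 CPM). IVF pool 1 was the only IVF pool with Csf1r (2.37 CPM) and C1qa (2.37 CPM). Kitl was at 2.42 CPM in Natural pool 4 and at 0 in the other 3 Natural pools. Smad5 was lowest in IVF pool 3 (47.1 CPM) within a narrow range, and Spdya, a gene of telomere attachment, was highest among IVF pools in pool 5 (5.89 CPM).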

How the results depend on the processing

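edgeR called 0 genes under each alternative scaling, filter and covariate and with each pool left out in turn, with 185 to 2031 genes at an unadjusted p under 0.05 when 1 pool was left out. Leaving out both Natural pool 2 and IVF pool 2 gave 1 gene higher, Mir692-2, and leaving out Natural pool 2 gave 252 higher and 39 lower with DESeq2 and 278 higher and 336 lower with limma-voom. These 3 fits, and the one with the mean of the meiotic genes as a covariate, which called 0 genes (870 at an unadjusted p under 0.05), were added after the data were seen. The share of variation between groups was 9.85% to 14.6% under other settings with all pools, 10.8% to 28.9% with 1 pool left out, and 28.6% without both pools (exact permutation p = 0.0857). The number of soma genes at 1 CPM in every pool, 14, was 9 at a level of 5 CPM and 27 when at least 5 of the 9 pools had to reach 1 CPM.

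Of 732 refitted log2 fold changes for 34 genes, 18 changed direction. Another 32 kept their direction and came from fits that called the gene, which the main fit did not. Stra8, −0.47 with all pools, was 6.19 with limma-voom, 0.89 with the soma covariate, 1.499 with the meiotic covariate, 3.32 without both pools, and 3.46 (DESeq2) and 7.60 (limma-voom) without Natural pool 2, and it ranged from −0.87 to 3.53 with 1 pool left out. Rad21l was 3.51 with limma-voom, 0.77 with the meiotic covariate and 5.19 with DESeq2 without Natural pool 2. Nanog was 0.32 with the soma and 0.51 with the meiotic covariate. With 1 pool left out Rec8 ranged from −0.18 to 1.74 and Smc1b from −0.057 to 0.91. The cause was not tested. With the replicate number as a block (8 libraries numbered 1 to 4), 0 genes were called, 486 had an unadjusted p under 0.05, the block fit gave Stra8 a value of 2.45, and no other direction changed. Correlations of deviations between same-numbered pools were 0.28, 0.54, −0.07 and 0.33, and 3 of 4 correlated best with their own number, which is a hint of pairing from the data. Because 1 of the 4 correlations was not above 0.1 and the labels tie the numbers to nothing shared, the block was kept as an alternative. The depth of 4364495 to 8675189 counts limits what can be seen below about 0.7 CPM.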
